A study of Mus musculus with 4 samples.

Results

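CpG islands are stretches of DNA in which the dinucleotide CG is much more frequent than in the bulk of the mouse genome, and most of them lie at the start of a gene. The rows described here are merged regions of FoxO1 signal in mouse heart that hold a CpG island. They lie away from the gene starts in the authors' annotation. They were chosen from the deposited table of merged regions as those with a CpG island count above 0 and either no assigned gene or a midpoint more than 1000 bp from the start of every assigned gene. There are 1186 such regions among 16126 in all (7.35%), and among 8727 regions with a CpG island (13.6%). No measured signal entered the choice. A bound region below means any merged region, whether or not an interval was called there. In 392 of the 1186 no interval was called in any of the 3 libraries described here.

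The regions come from chromatin immunoprecipitation sequencing (ChIP-seq), in which an antibody against FoxO1 recovers the DNA fragments that the protein is bound to. Whole hearts of wild-type C57BL/6 male mice aged 12 weeks were used after 7 days in 1 of 3 conditions. The control, called Veh/Sham, combined vehicle injection with a sham operation. Iso mice received isoproterenol, an agonist of beta-adrenergic receptors, under the skin at 3 mg/kg/day, and TAC mice had transverse aortic constriction, which loads the left ventricle with pressure. Each condition is 1 library made from a pool of 3 hearts, with Drosophila chromatin added as a spike-in. There is therefore no replicate, no p-value, and every comparison below is between 3 libraries. Whole heart holds many cell types, and binding in a few cells cannot be told apart from weak binding in many.

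FoxO1 belongs to the forkhead family of transcription factors and is exported from the nucleus when Akt phosphorylates it downstream of insulin. In the nucleus it switches on genes of the cell cycle arrest, stress resistance, autophagy and insulin-receptor feedback programmes. CpG islands outside annotated promoters often turn out to be promoters themselves, of other transcripts of the same gene or of noncoding RNAs, while others lie within gene bodies or serve as regulatory elements of developmental genes.

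For each region the authors give a mean signal, which is the average fragment coverage over the region, a peak depth, which is the highest coverage reached there, and a yes or no call of an interval for each library. Summed over the 1186 regions, the peak depths came to 17769 (Veh/Sham), 20020 (Iso) and 26666 (TAC). The median peak depth of a region was 13, 14 and 20. At such depths counting error alone is wide: the 95% exact interval of the ratio of 2 peak depths spanned a median of 5.65 times from its lower to its upper bound for Iso against Veh/Sham. How the libraries were scaled to each other is not stated, so ratios are also set against the median of all 16126 regions.

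The regions were mostly short and close to genes. Their length ran from 194 to 4426 bp, with a median of 435 bp against 409 bp over all regions, and 1157 of them held 1 island, 27 held 2 and 2 held 3. The nearest assigned start belonged to a gene that contained the region in 610 cases, lay downstream of it in 292 (region upstream of the gene) and upstream of it in 99 (region past the gene's end), and 185 regions had no assigned gene. Among the 1001 regions with a gene the median distance was 3472 bp. Of these, 345 lay within 2000 bp and 85 beyond 50000 bp. The greatest distance was 1474977 bp, in Magi2, a synaptic and junctional scaffold gene, where the mean signal was 9.31 (Veh/Sham), 8.77 (Iso) and 9.15 (TAC).

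Some of these islands held a gene start in a fuller annotation. The RefSeq start table of build GRCm38.p6, which shares its coordinates with the mm10 build of the files, covers 1148 of the regions, all but those on chromosome 18. Of these, 390 (34.0%, 95% Wilson interval 31.3 to 36.8) had a midpoint within 1000 bp of a RefSeq start. The share was 6.46% (5.87 to 7.11) among the 6002 regions outside promoters that held no island. A start lay inside the region in 198 island regions (17.2%) and in 169 regions without an island (2.82%). Of the 390, 258 were near another start of the assigned gene itself, and 132 were near a start of a gene the table did not assign, 82 of them long noncoding RNAs and 50 protein-coding. Among regions with no assigned gene, 64 of the 173 covered lay within 1000 bp of a RefSeq start. They include protein-coding genes such as Cic, a transcriptional repressor of the receptor tyrosine kinase pathway, and Pik3ca, the catalytic subunit of the kinase that activates Akt.

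**Figure D1:**
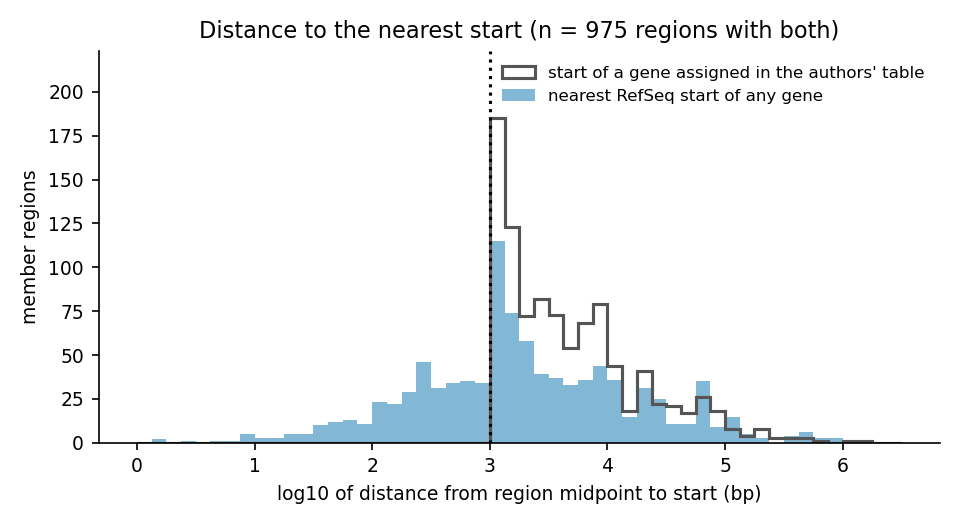
Number of CpG island regions outside promoters by the log10 distance in bp from the region's midpoint to the nearest start, for the 975 regions that have an assigned gene and lie on a chromosome of the RefSeq start table. The grey outline counts distances to starts assigned by the authors, all above the dotted line at 1000 bp by the rule. The blue bars count distances to the nearest RefSeq start of any gene, and a part of them lies left of the line.

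The sequences of such hidden starts show what the islands look like. The lines below give the 250 bases before a RefSeq start, 5′ to 3′ on the strand of the gene, with each CG in capitals, from RefSeq build GRCm38.p6. Cic, Pik3ca and the long noncoding RNA 2410080I02Rik, upstream of Klf9, are unassigned starts inside regions of high signal. Adipor2, Rnf44 and Mxi1 are further starts inside regions assigned to those same genes.
Cic, chr7:25267449-25267698, plus strand: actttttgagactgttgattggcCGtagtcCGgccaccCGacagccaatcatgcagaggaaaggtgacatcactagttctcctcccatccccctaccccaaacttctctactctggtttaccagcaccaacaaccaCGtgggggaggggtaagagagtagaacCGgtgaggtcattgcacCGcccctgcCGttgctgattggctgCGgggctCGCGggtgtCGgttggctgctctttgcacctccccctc
Pik3ca, chr3:32396815-32397064, plus strand: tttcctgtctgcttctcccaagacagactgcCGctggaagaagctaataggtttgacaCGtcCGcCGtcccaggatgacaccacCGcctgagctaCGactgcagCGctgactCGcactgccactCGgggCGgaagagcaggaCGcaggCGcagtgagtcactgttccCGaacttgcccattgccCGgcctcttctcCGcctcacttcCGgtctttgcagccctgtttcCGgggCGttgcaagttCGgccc
2410080I02Rik, chr19:23134248-23134497, plus strand: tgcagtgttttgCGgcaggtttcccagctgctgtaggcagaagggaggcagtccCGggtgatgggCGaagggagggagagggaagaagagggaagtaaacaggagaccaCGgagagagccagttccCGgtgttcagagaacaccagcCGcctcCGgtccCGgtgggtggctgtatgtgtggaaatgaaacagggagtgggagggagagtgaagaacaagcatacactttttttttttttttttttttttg
Adipor2, chr6:119388735-119388984, minus strand: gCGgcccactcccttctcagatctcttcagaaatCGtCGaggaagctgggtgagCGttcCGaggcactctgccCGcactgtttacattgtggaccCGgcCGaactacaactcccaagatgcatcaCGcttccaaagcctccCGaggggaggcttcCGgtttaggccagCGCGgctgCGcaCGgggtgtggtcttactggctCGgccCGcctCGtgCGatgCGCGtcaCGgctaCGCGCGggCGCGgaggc
Rnf44, chr13:54687809-54688058, minus strand: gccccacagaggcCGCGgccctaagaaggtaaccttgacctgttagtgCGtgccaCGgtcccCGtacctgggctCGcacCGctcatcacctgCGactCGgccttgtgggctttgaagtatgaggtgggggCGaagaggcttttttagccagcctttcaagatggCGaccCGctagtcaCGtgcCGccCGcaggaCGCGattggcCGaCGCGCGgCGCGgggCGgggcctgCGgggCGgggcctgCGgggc
Mxi1, chr19:53329445-53329694, plus strand: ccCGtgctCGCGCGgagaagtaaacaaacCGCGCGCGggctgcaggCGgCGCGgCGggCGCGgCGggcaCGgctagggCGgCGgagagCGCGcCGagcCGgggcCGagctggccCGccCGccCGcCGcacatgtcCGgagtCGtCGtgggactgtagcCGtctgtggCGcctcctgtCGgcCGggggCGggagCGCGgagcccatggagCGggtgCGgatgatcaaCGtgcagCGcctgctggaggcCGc
The Mxi1 window held 42 CGs in 250 bases with 77.2% G and C, the Adipor2 and Rnf44 windows held 27 each, and the Pik3ca window held 19. The Cic window held 11 and the 2410080I02Rik window 8, fewer than the others. Over 300-base windows, from 250 before to 50 after the start, the median was 23 CGs for the 243 starts inside the island regions outside promoters and 24 for the 5582 starts inside CpG island promoter regions. It was 6 for the 185 starts inside regions outside promoters with no island, and 7 over all 32817 RefSeq starts. In CG content the starts inside these islands were close to those of annotated island promoters. Both groups were chosen for holding an island. Their closeness, and the gap to regions with no island, therefore follow at least in part from the choice.

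The core forkhead motif GTAAACA, searched on both strands, where its reverse complement is TGTTTAC, was found in 13 of those 243 windows (5.35%). It was in 2.63% of windows at starts inside island promoter regions, 9.19% at starts inside regions outside promoters with no island and 3.65% of all RefSeq start windows. The following 30-base stretches lie inside the bound regions, with the motif in capitals, in the same build. They were chosen after their values were seen, as 6 of the matches of highest signal at such starts.
2410080I02Rik, chr19:23134330-23134359, plus strand: aagaagagggaaGTAAACAggagaccacgg
Adipor2, chr6:119388889-119388918, minus strand: ctctgcccgcacTGTTTACattgtggaccc
Brd2, chr17:34120109-34120138, minus strand: gctggctagacaGTAAACActcggggtggc
Stk11, chr10:80115799-80115828, plus strand: cggcgcagggcgGTAAACAagatggcggcg
Pim1, chr17:29493003-29493032, plus strand: tccccaaagtttGTAAACAggaatcacgtg
Tnrc18, chr5:142817817-142817846, minus strand: tgagggccaaggTGTTTACatgcgcgtgat
The first belongs to the region upstream of Klf9 and the second to Adipor2, both among the 8 regions of highest signal. Stk11 encodes LKB1, the kinase that activates AMPK, and Pim1 encodes a survival kinase. Their regions had a mean signal of 13.6 (Veh/Sham), 16.6 (Iso) and 26.9 (TAC) for Stk11, and 13.2, 13.7 and 22.6 in the same order for Pim1. Both were highest in TAC. A match of 7 letters is a description of the sequence and no measure of binding.

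The strongest signal lay at a region with no assigned gene on chromosome 5 (chr5:32713726-32714494), with a mean signal of 40.8 (Veh/Sham), 54.6 (Iso) and 50.3 (TAC). The second was 9620 bp upstream of Pemt, which makes phosphatidylcholine by methylation, at 38.7, 44.0 and 49.5 in the same order. The region holding the Cic start (chr7:25267239-25268649) had 30.6, 42.0 and 40.9. All of them were called in the 3 libraries, and Veh/Sham was the lowest of the 3 in each.

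The region 5769 bp upstream of Klf9, a Krueppel-like factor induced by glucocorticoids and thyroid hormone, was 3053 bp long and reached the highest peak depth of all the island regions outside promoters in Veh/Sham, 142, against 97 in Iso and 125 in TAC. Its mean signal was 35.1, 32.5 and 43.8. The peak was lower in Iso than in Veh/Sham by a ratio of 0.68 (95% counting interval 0.52 to 0.89). A region 5205 bp upstream of Map1lc3b, the gene of the autophagosome protein LC3B, had 30.3, 38.7 and 38.9, again lowest in Veh/Sham. Inside Adipor2, an adiponectin receptor and known FoxO1 target, the region 28478 bp past the assigned start had 26.3, 33.3 and 40.3. RefSeq has another Adipor2 start in that region, 271 bp from its midpoint. The remaining strong regions were next to Gm16432 and 4932431P20Rik.

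The start of Pik3ca lay in a region with no assigned gene (chr3:32396792-32397272), where the mean signal was 20.9 (Veh/Sham), 40 (Iso) and 27.3 (TAC). Iso was the highest there, and its peak depth of 71 stood against 37 in Veh/Sham and 47 in TAC. A start inside Rnf44, a RING-finger gene, showed 14.6, 16.7 and 34.3, highest in TAC. The longest region, 4426 bp in Brd2, a reader of acetylated histones, had 18.8, 17.3 and 27.9. A region of 1651 bp with 2 islands lay 10463 bp upstream of the microRNA cluster of Mir23a, Mir27a and Mir24-2, and it had 16.5, 21.1 and 36.6. TAC was the highest library at each of the latter regions.

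Across the 1186 regions the 3 libraries had the same order as over all regions, with Iso closer to Veh/Sham. The median mean signal was 8.67 (Veh/Sham), 9.31 (Iso) and 14.3 (TAC). Over all regions it was 8.71, 11 and 14.0. TAC was the highest library in 896 of the island regions outside promoters (75.5%, against 63.1% of all regions), Iso in 155 (13.1%, against 26.9%) and Veh/Sham in 135 (11.4%, against 10.1%). Intervals were called in Veh/Sham in 592 of them (49.9%, against 49.1% of all regions) and in TAC in 567 (47.8%, against 45%). In Iso they were called in only 332 (28.0%, against 36%). In 392 regions (33.1%, against 30.5%) no interval was called in any of the 3 libraries. Calls in a single library numbered 168 for Veh/Sham (14.2%, against 13.5%), 165 for TAC (13.9%, against 11.5%) and 20 for Iso (1.69%, against 6.06%). Calls in Iso alone were also few in CpG island promoter regions, 149 of 7541. They numbered 727 of 6238 in regions outside promoters with no island. Few calls in Iso alone were thus not particular to islands outside promoters.

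**Figure D2:**
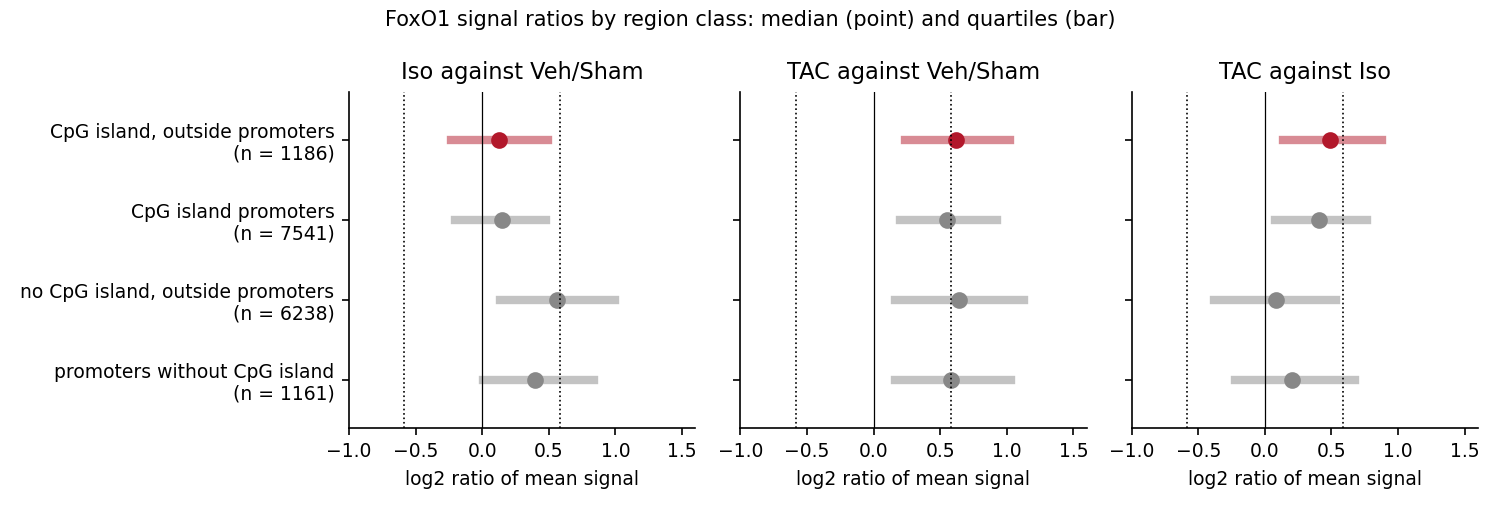
Log2 ratio of mean signal between libraries in 4 classes of region, as the median (point) and quartiles (bar), with the island regions outside promoters in red and dotted lines at 1.5-fold. For Iso against Veh/Sham both island classes lie near 0.13 to 0.15, and the class outside promoters with no island lies at 0.56.

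The Iso library stood above Veh/Sham at a smaller share of these islands than of all regions. The log2 ratio of Iso to Veh/Sham, on mean signal plus 1, had a median of 0.13, against 0.30 over all regions. It was 0.15 in CpG island promoter regions and 0.56 in regions outside promoters without an island. Of the 1186 regions 227 (19.1%) were at least 1.5-fold higher in Iso, where 31.8% of all regions were, and 139 (11.7%) were at least 1.5-fold lower, where 7.99% of all regions were. Set against the median of all regions, which was 0.30, 98 were higher (8.26%, against 17.8%) and 267 lower (22.5%, against 16.1%). When all regions were split by signal into 4 bins of equal size, the median ratio from the weakest to the strongest bin was -0.03, 0.11, 0.18 and 0.21 for these islands. In regions outside promoters with no island it was 0.47, 0.57, 0.62 and 0.57, above the islands in each bin. Of the 227, 47 (20.7%, against 32.9% of the higher ones among all regions) had a counting interval of the peak-depth ratio above 1. Of the 139, 18 (12.9%, against 11.6%) had one below 1. These counts compare libraries, not the conditions.

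The regions named next had the 8 lowest ratios of Iso to Veh/Sham among those of at least median signal. This choice fixes Iso below Veh/Sham in each. In Mxi1, a Myc antagonist, a region of 390 bp around a RefSeq start had a mean signal of 19.7 (Veh/Sham), 6.67 (Iso) and 11 (TAC). The log2 ratio of Iso to Veh/Sham there was -1.43 and the peak depth ratio 0.30 (0.12 to 0.67). Mn1, a transcriptional coregulator, had a region 1376 bp upstream at 9.13, 2.88 and 23.6, lowest in Iso and highest in TAC. Nfib, a nuclear factor I gene, had 12.1, 4.33 and 18.3 at a region 1645 bp upstream. Nr4a3, an orphan nuclear receptor of the immediate early class, had 18.7, 7.87 and 12.1. Id1, an inhibitor of basic helix-loop-helix factors, had 12.6, 6.14 and 15.8 at 1063 bp upstream. Hsp90b1, the chaperone of the endoplasmic reticulum, had 14.5, 7.00 and 13.4 at 19913 bp from its start. The 8 regions also include one on chromosome 9 and one on chromosome 17 with no assigned gene. Besides Mxi1, the counting interval of the peak-depth ratio lay below 1 for Nfib (0.10 to 0.82) and the chromosome 9 region (0.22 to 0.93). It held 1 for Mn1 (0.078 to 1.10), Nr4a3 (0.33 to 1.20), Hsp90b1 (0.18 to 1.03), Id1 (0.19 to 1.10) and the chromosome 17 region (0.12 to 1.01). These intervals take no account of the choice of the lowest ratios, so an interval below 1 here is no support for a difference. Over all 1186 regions 21 (1.77%, against 1.04% of all regions) had an interval below 1.

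With the same limit on signal, several of the 8 highest ratios of Iso to Veh/Sham are given here. Iso stands above Veh/Sham in each by choice, and the counting intervals take no account of that choice. A region without an assigned gene on chromosome 14 (chr14:100285795-100286084) had 2.11 (Veh/Sham), 10.2 (Iso) and 21.8 (TAC). Its counting interval of the Iso to Veh/Sham peak ratio, 0.91 to 12.8, held 1. Sgca, which encodes alpha-sarcoglycan of the dystrophin complex in muscle, had 4.89, 19.9 and 20.9 at 2835 bp upstream, with a peak ratio of Iso to Veh/Sham of 4.17 (1.67 to 12.4). The region 1246 bp upstream of Wbp4 and next to Elf1 had 3.63, 14.8 and 20. These 3 were low in Veh/Sham and higher in both other libraries. Slc16a3, the lactate exporter MCT4, had 5.13, 17.6 and 11.9, and Pam, a peptide-amidating enzyme, had 6.71, 19.4 and 10.4. Those 2 were highest in Iso.

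**Figure D3:**
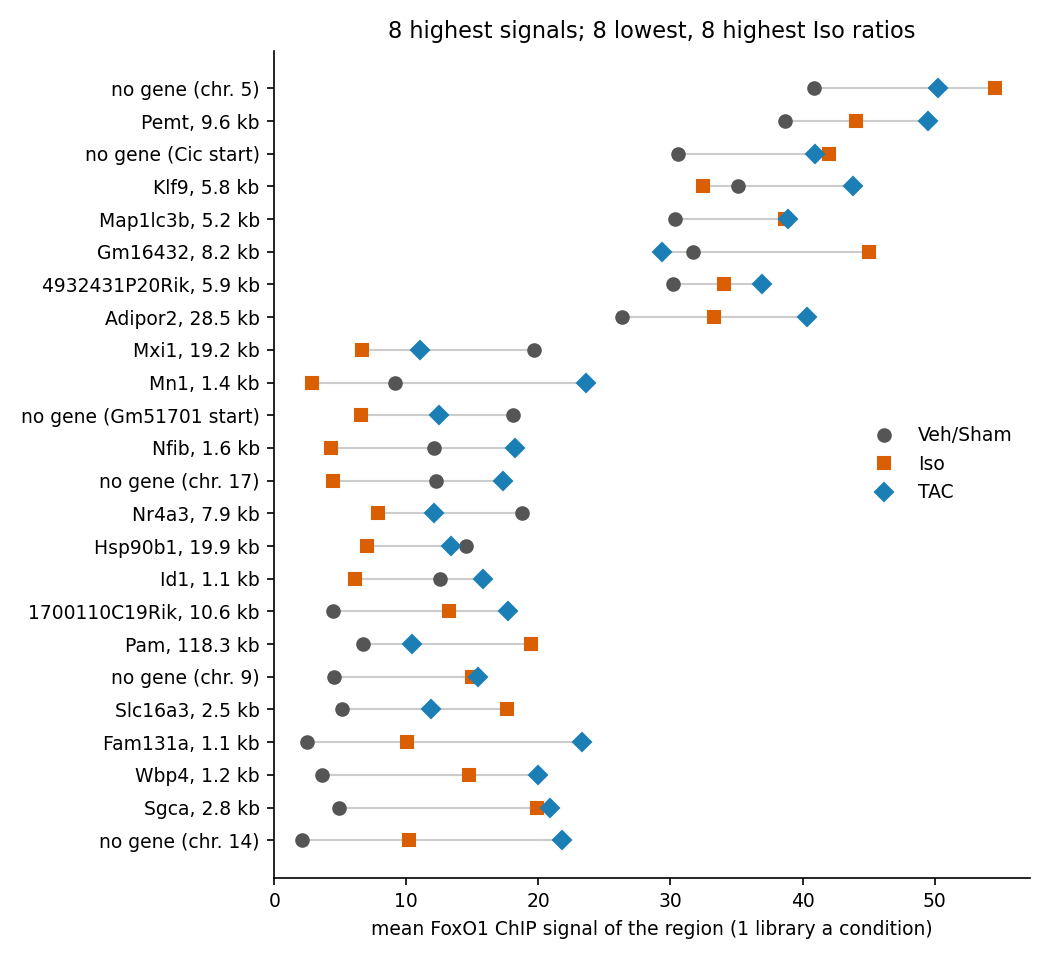
Mean FoxO1 signal in Veh/Sham (circles), Iso (squares) and TAC (diamonds) for the 8 island regions outside promoters of highest signal, the 8 of lowest and the 8 of highest Iso to Veh/Sham ratio, from top to bottom, with the distance to the named gene's start. Iso lies left of Veh/Sham in the middle block and right of it in the lower block, as their choice fixes.

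The TAC library stood above Veh/Sham at about as large a share of these islands as of all regions. The median log2 ratio of TAC to Veh/Sham was 0.62, against 0.59 over all regions, and 620 regions (52.3%) were at least 1.5-fold higher, where 50.2% of all regions were. Only 37 (3.12%) were at least 1.5-fold lower, where 4.18% of all regions were. With the median of all regions set to 0, 212 were higher (17.9%, against 18.4%) and 180 lower (15.2%, against 17%), so neither share stood far from the background. A counting interval above 1 was found for 267 of the 620 (43.1%, against 40.4% of the higher ones among all regions) and one below 1 for 3 of the 37 (8.11%, against 10.2%), both near the background.

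Within these regions the median ratio of TAC to Veh/Sham fell with distance from the assigned start. The fall did not extend to CpG island promoter regions, within 1000 bp of a start, where the median was 0.55. Other classes were not split by distance. For the island regions outside promoters the medians follow. The median ratio was 0.74 in the 345 regions within 2000 bp, 0.68 up to 5000 bp, 0.61 up to 10000 bp, 0.54 up to 50000 bp and 0.46 in the 85 regions beyond. In the 270 regions with an island promoter region within 2000 bp it was 0.75, and 0.58 in the other 916.

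Among regions of at least median signal, the 8 highest ratios of TAC to Veh/Sham included the chromosome 14 region. They also included Fam131a, assigned together with Eif4g1 and Clcn2, at 2.50 (Veh/Sham), 10.1 (Iso) and 23.3 (TAC). Itpripl2 had 3.75, 8.25 and 22.0, Rnf114, a ubiquitin ligase, had 4.14, 8.29 and 22.6, and Mia3, which exports collagen from the endoplasmic reticulum, had 4.10, 10.5 and 19.7. All of these were lowest in Veh/Sham and highest in TAC. The choice by ratio fixes TAC above Veh/Sham in them, and the limit on signal counts the TAC value itself.

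The regions named next were among the 8 lowest ratios of TAC to Veh/Sham with the same limit on signal. A region with no assigned gene on chromosome 9 (chr9:72133296-72133834) had 17.4, 13.5 and 8.82. In Crygn, a lens crystallin gene, the region had 15.1, 19.5 and 7.79, and a region 4264 bp downstream of the start of Id3 had 14.8, 18.3 and 9. The region 3704 bp upstream of Sema3b and near Gnai2, an inhibitory G protein gene, had 14.3, 22.1 and 10.1. TAC was the lowest library in each, and Iso the highest in the last 3. The choice by ratio fixes TAC below Veh/Sham in them. Counting intervals of the TAC to Veh/Sham peak ratio all held 1. They were 0.36 to 1.31 (chromosome 9), 0.19 to 1.0003 (Crygn), 0.25 to 1.28 (Id3) and 0.29 to 1.18 (Sema3b). The peak depth of the Crygn region was 22 (Veh/Sham), 31 (Iso) and 10 (TAC).

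**Figure D4:**
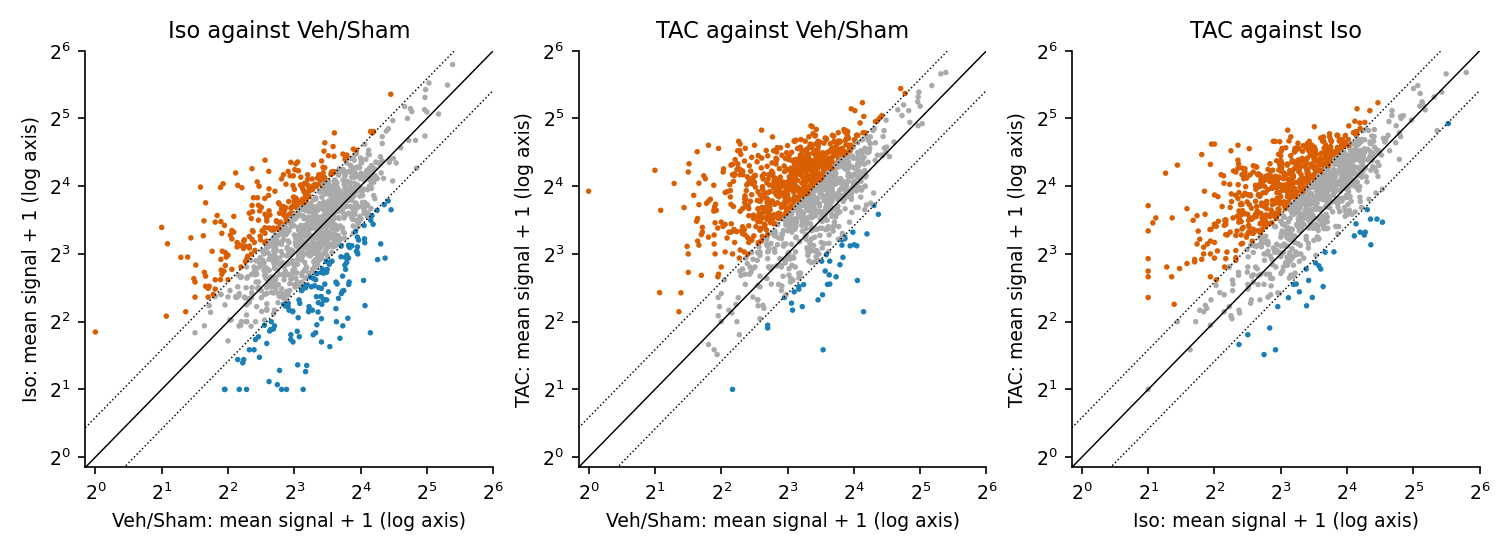
Mean signal plus 1 of the 1186 island regions outside promoters in 1 library against another on log axes, with the line of equality and dotted lines at 1.5-fold. Orange points are at least 1.5-fold higher and blue points at least 1.5-fold lower, 227 and 139 (Iso to Veh/Sham), 620 and 37 (TAC to Veh/Sham), and 511 and 31 (TAC to Iso).

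The TAC library stood above Iso at a larger share of these islands than of all regions. The median log2 ratio of TAC to Iso was 0.49, against 0.29 over all regions, 0.41 in island promoter regions and 0.09 in regions outside promoters with no island. Of the island regions outside promoters 511 (43.1%) were at least 1.5-fold higher in TAC, where 31.4% of all regions were, and 31 (2.61%) at least 1.5-fold lower, where 8.85% of all regions were. With the same centring 297 were higher (25.04%, against 17%) and 75 lower (6.32%, against 17.4%). The ratio of summed peak depths was 1.33 over the island regions and 1.13 over all regions. An interval above 1 was found for 182 of the 511 (35.6%, against 31.6% of the higher ones among all regions), and one below 1 for 3 of the 31 (9.68%, against 29.2%).

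Within these regions the gap between TAC and Iso differed by position. Other classes were not split by position, so the difference cannot be called particular to these islands. For the 610 regions within a gene the median log2 ratio of TAC to Iso was 0.58 and an interval was called in Iso in 21.6%. For the 292 upstream regions the ratio was 0.42 and the share called in Iso 37.7%, for the 99 downstream regions 0.34 and 33.3%, and for the 185 with no gene 0.30 and 30.8%. The median signal in Iso was 8.30 inside genes and 10.8 upstream, and the median length 412.5 and 487.5 bp.

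Among regions of at least median signal Mn1 had the highest log2 ratio of TAC to Iso, 2.67, on peak depths of 28 in TAC, 4 in Iso and 12 in Veh/Sham (peak ratio 7.00, 2.45 to 27.5). Nfib had the same order of libraries, at 1.85. Ltbp4, which binds latent TGF-beta in the matrix, had 7.62 (Veh/Sham), 6.54 (Iso) and 24.3 (TAC). Elmsan1, a subunit of a histone deacetylase complex, had 12.9, 6.91 and 24.2, and RefSeq has a start of that gene 191 bp from the region's midpoint. Lmnb1, the gene of lamin B1, had 7.88, 4.75 and 22.5. TAC stood above both other libraries in each of these. The choice by ratio fixes TAC above Iso in them, and the limit on signal counts the TAC value itself. Counting intervals take no account of that choice. At the other end, with the same limit, stood Crygn, at -1.22, Sema3b, at -1.06, and Id3, at -0.95. The counting interval of the TAC to Iso peak ratio held 1 at Id3 (0.24 to 1.20). The region at Yod1 and Pfkfb2, the latter the gene of an enzyme that regulates glycolysis, had 10.4, 20.9 and 10.4, with equal values in Veh/Sham and TAC.

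Of 53 known FoxO target genes 45 had any bound region, and 17 of the 45 had an island region outside promoters, 26 regions in all. Of all 11718 genes with a bound region, 1156 (9.87%) had one. The 26 regions' median log2 ratio was -0.04 (Iso to Veh/Sham), 0.61 (TAC to Veh/Sham) and 0.66 (TAC to Iso), beside 0.30, 0.59 and 0.29 over all regions. TAC was the highest library in 23 of the 26, as it was in 63.1% of all regions and 75.5% of the island regions outside promoters. Iso was the lowest in 13, as it was in 26.1% and 36.1%. In 10 of the 26 no interval was called in any library, as in 33.1% of the island regions outside promoters. Beyond 1.5-fold, 15 were higher and 0 lower in TAC than in Veh/Sham, where 50.2% and 4.18% of all regions were, so the higher count is near the background. In Iso 2 were higher and 4 lower than in Veh/Sham, where 31.8% and 7.99% of all regions were.

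Of the 17 genes 3 are cell cycle inhibitors. Cdkn1a, which encodes p21, had 9.86 (Veh/Sham), 9.57 (Iso) and 17.1 (TAC) at a region that holds another Cdkn1a start, and 12.8, 13.7 and 24.4 at the next region. Cdkn1b, which encodes p27, had 6.31, 3.69 and 15.3, with a peak ratio of TAC to Iso of 4 (1.46 to 13.6). Cdkn2c, which encodes p18, had 6.00, 4.60 and 16.4 at 1014 bp upstream, and 11.8, 11.4 and 13.9 at the next region. TAC was the highest library at each of them, by little at the last.

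The FoxO genes themselves carried such islands. In Foxo1, 1405 bp past the start, the mean signal was 9.21 (Veh/Sham), 7.00 (Iso) and 19.8 (TAC), with a peak ratio of TAC to Veh/Sham of 2.15 (1.08 to 4.53). Foxo3 had 3 regions, with 7.63, 4.50 and 18.1 at the one 1912 bp past its start. All 3 Foxo3 regions were lowest in Iso and highest in TAC. Iso was lowest in 36.1% and TAC highest in 75.5% of the island regions outside promoters. An interval was called in TAC at 1 of the 3, and in Veh/Sham and Iso at 0.

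Genes of the insulin receptor pathway were mixed. Irs1, the substrate that carries the insulin signal, had 18, 11.5 and 25.5, lowest in Iso. Insr, the insulin receptor, had 15.3, 14.1 and 15.0 at a region 58410 bp into the gene, nearly level. Igf1r had 16.5, 18.2 and 24.7, and the 2 regions of Irs2 stayed between 4.29 and 7.00 in the 3 libraries. Pik3ip1, which restrains the phosphoinositide kinase, had 18.98, 19.8 and 19.9, also nearly level.

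Among stress and death genes, Bbc3, which encodes the BH3-only protein PUMA, had 4 regions, with a mean signal from 4.60 to 12.1 in Veh/Sham, 7.83 to 13.8 in Iso and 10.5 to 18.5 in TAC, and each of the 4 was highest in TAC. Bcl2l11, which encodes BIM, had 13.8, 9.65 and 15.1. Sesn1, which restrains mTORC1, had 7.60, 8.20 and 13.3 at a region 76971 bp into the gene, where RefSeq has a start 106 bp from the midpoint. Klf4 had 14.5, 7.60 and 14.1 at 1085 bp past its start, where Iso stood lowest.

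**Figure D5:**
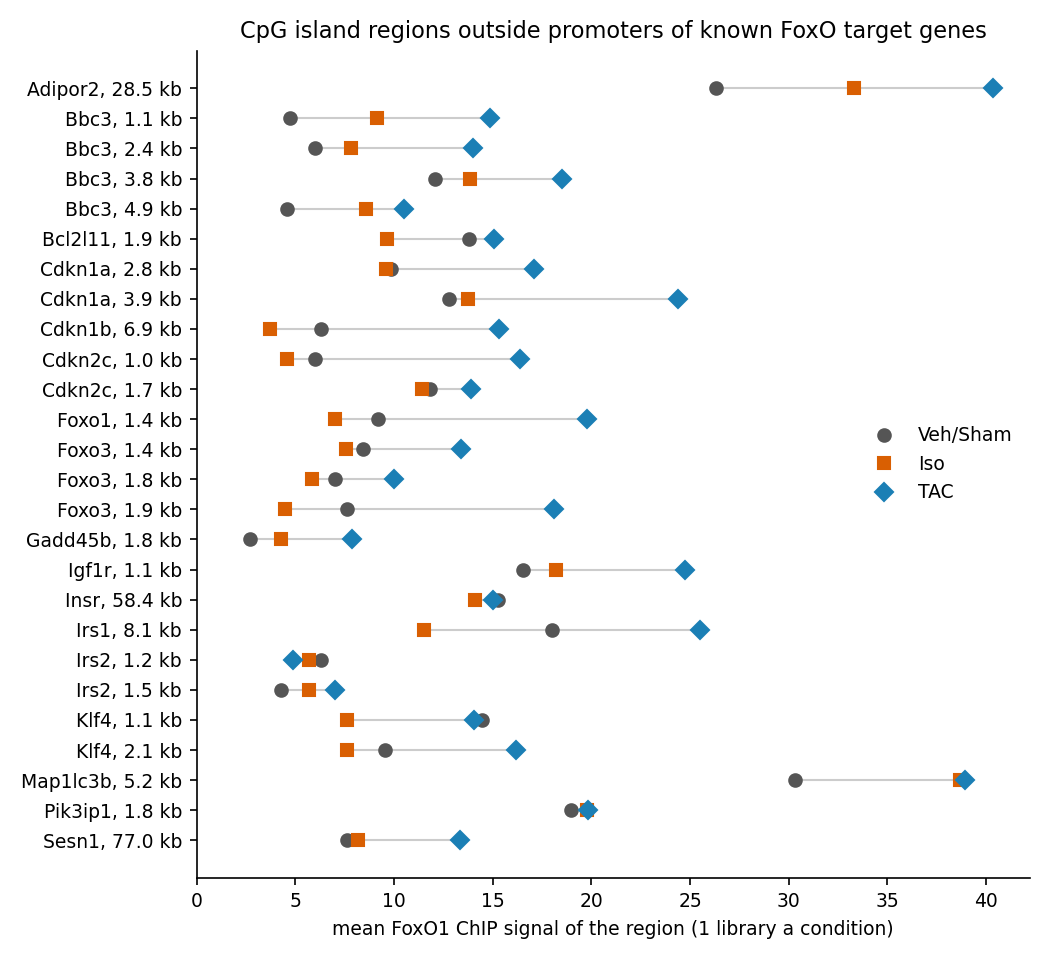
Mean FoxO1 signal in Veh/Sham (circles), Iso (squares) and TAC (diamonds) at the 26 island regions outside promoters of 17 known FoxO target genes, with the distance to the named gene's start. TAC is the rightmost symbol in 23 of the 26.

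In the wider insulin, Akt and mTOR list 34 of 39 genes had a bound region. Of the 34, 6 had an island region outside promoters, 9 regions in all, beside 9.87% of all genes with a bound region. The region 1005 bp upstream of Gsk3b, a kinase that Akt inhibits, had 2.80 (Veh/Sham), 15.4 (Iso) and 11.5 (TAC), with peak depths of 3, 18 and 18. The peak ratio of Iso to Veh/Sham was 6.00, with a wide interval from 1.75 to 31.8. Sos1, a Ras exchange factor, had 7.75, 14.5 and 20. Inppl1, a lipid phosphatase that opposes the kinase, had 7.43, 4.80 and 17.0. The 9 regions had medians of 0.22 (Iso to Veh/Sham), 0.78 (TAC to Veh/Sham) and 0.64 (TAC to Iso). Over all 1186 island regions outside promoters the medians were 0.13, 0.62 and 0.49, to be set beside those of the lists below as well. TAC was the highest library in 75.5% of the 1186, the background for genes below whose regions were each highest in TAC.

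In the Notch, Wnt, hedgehog and BMP list 51 of 80 genes had a bound region. Of the 51, 14 had 27 island regions outside promoters, with medians of 0.13, 0.58 and 0.71. Hes1, a Notch effector, had 4.36, 5 and 18.7 at a region 5437 bp from its start and 7.85, 9.46 and 19.2 at one 1424 bp from it, both highest in TAC. Dll4, a Notch ligand of endothelium, had 4 regions, each highest in TAC, and one 3517 bp upstream had 2.50, 5.14 and 12.7. Rbpj, the DNA-binding partner of Notch, had 11.7, 8.64 and 22.5 at a region that holds another RefSeq start, 34065 bp into the gene. The Id genes differed among their own regions: Id2 had 12.3, 2.83 and 5.33 at 2857 bp upstream and 7.90, 8.67 and 13.1 at 3947 bp upstream.

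None of the 52 Hox genes had any bound region in the table, and of 132 other developmental transcription factors 22 had one and 10 of the 22 had an island region outside promoters. Those 10 held 23 regions, with medians of 0.02, 0.74 and 0.67. Hic1, a tumour suppressor, had 5 regions over chr11:75165287-75169342, each highest in TAC, from 8.46 to 25.5 in that library. Ebf3 had 22.7 in TAC at 1357 bp past its start against 6.43 in Veh/Sham and 7.43 in Iso. Nfia, by contrast, had 4 regions between 169357 and 196053 bp into the gene, and 1 of the 4 was highest in TAC.

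Of 30 cardiac lineage factors 20 had a bound region and 7 an island region outside promoters, 8 regions in all. The region 6719 bp upstream of Gata4, a factor of heart development and hypertrophy, is listed at 0 in Veh/Sham for both mean signal and peak depth, and had a mean signal of 2.60 in Iso and 14.2 in TAC, with peak depths of 3 and 18. Nfatc1, a calcineurin target, had 6.14, 8.23 and 21.7 at one region and 10.2, 5.75 and 12.4 at the other. Mef2c had 8.25, 9.13 and 12.9, near another of its RefSeq starts. The list's medians were 0.39, 0.57 and 0.44.

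Of 49 imprinted genes 20 had a bound region, and 5 had 6 of the island regions outside promoters. Gnas, which encodes the stimulatory G protein subunit, had 3 of them, from 6.29 to 9.15 in Veh/Sham, 5.43 to 5.57 in Iso and 8.43 to 12.5 in TAC, lowest in Iso and highest in TAC. Cdkn1c, a growth inhibitor, had 8.33, 3.5 and 9.83. H13 had 12.97, 12.8 and 13.6 and Peg3 had 8.85, 11.1 and 11.5, where the libraries were closer. Of 43 sarcomere and calcium handling genes 14 had a bound region, and 3 of them, Ldb3, Mybpc3 and Tpm1, had an island region outside promoters. Of 53 matrix genes 33 had a bound region and 1, Lamb1, had one of these.

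Another bound region, with or without an island, lay within 500 bp in 482 cases (40.6%, against 28.2% of all regions). The 1186 regions were assigned to 1156 genes, of which 250 had at least 2, and 546 of the genes (47.2%) also had a CpG island promoter region. For 639 island regions outside promoters an assigned gene had a promoter region. Each was compared with the strongest promoter region of any of its assigned genes, by signal averaged over the 3 libraries. It exceeded that region in 244 cases for Veh/Sham (38.2%), 237 for Iso (37.1%) and 247 for TAC (38.7%). Taking the strongest favours the promoter side. The median signal of the island regions was 8.39 against 10.3 in the strongest promoter region in Veh/Sham, 9.23 against 11.7 in Iso and 14.3 against 17.1 in TAC.

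The most regions, 12, fell to Bcor, a corepressor gene on chromosome X that was singled out after its values were seen. They lay between 1181 and 80559 bp past its start, with a mean signal from 3.13 to 13.1 in Veh/Sham, 2 to 8.43 in Iso and 5.13 to 13.5 in TAC. TAC was the highest library, or level with the highest, in 9 of the 12, near the 75.5% of the island regions outside promoters. None was called in Iso, where 28.0% of the island regions outside promoters and 36% of all regions were. Tnrc18, also singled out in that way, had 5 regions, each highest in TAC, up to 25.1.

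Adjacent regions did not always differ in the same direction. Of 156 adjacent pairs within 500 bp of each other, 12 were past 1.5-fold in opposite directions and 12 in the same direction for Iso against Veh/Sham. Between TAC and Veh/Sham 5 pairs were opposite and 48 alike, and between TAC and Iso 1 and 41. Pairs were not counted over all regions, so these counts have no background. Of single island regions outside promoters, 19.1% were higher and 11.7% lower for Iso against Veh/Sham. The shares were 52.3% and 3.12% for TAC against Veh/Sham and 43.1% and 2.61% for TAC against Iso. Whether pairs go beyond these shares was not tested. The single opposite pair between TAC and Iso was in Mxi1. Its first region (chr19:53329027-53329429) had 16.9 (Veh/Sham), 18.8 (Iso) and 11.6 (TAC), and its second (chr19:53329545-53329935) had 19.7, 6.67 and 11. Iso was the highest library in the first and the lowest in the second, and the Mxi1 window printed above begins in the gap between them. On chromosome 9 the adjacent regions chr9:123924572-123925195 and chr9:123925289-123925773 had 18.1, 6.55 and 12.5, and 4.53, 15.0 and 15.4.

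At the threshold of 1000 bp, the nearest regions inside the rule were in Mxd4 at 1001 bp, with 6.46, 6.29 and 14.8 in Veh/Sham, Iso and TAC, and in Lmnb1 and Tial1 at 1002 bp. The nearest outside it were at 999 bp, in Fcho2, with 5.36, 10.2 and 19, and at Tle3 and Phf15. TAC was the highest library on both sides.

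The labelled tissue could be checked only through binding, not expression. None of 7 cardiomyocyte marker genes and none of 4 other blood cell markers had a bound region of any kind, while 4 of 4 endothelial and 2 of 4 fibroblast markers did. Of 7 B lymphocyte and plasma cell markers Cd79a, Igkc, Ighg1 and Ighg2c had one, with a summed mean signal of 29.7 (Veh/Sham), 50.1 (Iso) and 433 (TAC). The one island region outside promoters among them, shared by Cd79a and Arhgef1, had 15.6, 11.6 and 16.6. The part of such cells in the TAC values was not tested.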

How the data were processed

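FoxO1 ChIP-seq was measured in 3 libraries, 1 per condition. The submitters' processing notes name BWA, SICER and mm10, with no role or version. The authors deposited 1 table of merged regions with a mean signal (coverage), a peak depth (counts of overlapping fragments at the highest position, deposited as whole numbers), a call of 0 or 1, a CpG island count, and gene distances. The scaling of the libraries to each other is not stated. Another 6 columns of the table, from libraries outside the series, were not used, and the input library was not analysed here. Regions called only in those outside libraries can be among the merged regions.

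Regions were compared as log2 of mean signal with 1 added, with a size threshold of 1.5-fold in either direction and no test. Exact (Clopper-Pearson) 95% intervals of peak-depth ratios and Wilson intervals of shares cover counting error only. They are not adjusted for the choice of regions by their ratios. Named regions are the 8 of highest signal, the 8 highest and 8 lowest ratios of each comparison among regions of at least median signal, the extreme members of each list, the extremes of distance, length and islands, those holding an unassigned start, and those nearest the threshold. Further regions were added after their values were seen: other starts of assigned genes, motif matches, further list members, Bcor, Tnrc18 and the adjacent pairs. Members and lists were chosen with earlier results of these data known. Starts and sequences came from RefSeq GRCm38.p6: the distances in the table matched RefSeq starts within 1 bp in 4374 of 6052 regions with 1 gene (72.3%). Python 3.11.15 with pandas 2.3.3, NumPy 2.4.6 and SciPy 1.17.1 was used, and the ratios and intervals were tested on simulated data. Some regions that meet the naming rule are not reported here.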

Additional observations from a re-analysis of the deposited data

How the results depend on the processing

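Of 99 values recomputed under another setting, 41 stayed close to the reported value, 57 moved and 1 changed sign; regions called, filtered or farther away are fewer by construction, and otherwise the cause was not tested. No paired analysis was possible because each condition has 1 library. Counts below are of regions past 1.5-fold. For Iso against Veh/Sham the 227 higher and 139 lower regions became 105 and 69 with a pseudocount of 5, 98 and 267 after recentring on the median of all regions, 82 and 79 among regions called in either library, 75 and 56 at 2-fold, and 113 and 76 beyond 5000 bp. The lower count was 65 without the 25% of regions of lowest signal and 78 when regions near any RefSeq start were left out. The median ratio of 0.13 turned to -0.17 after recentring, and was 0.088 with a pseudocount of 5, 0.16 without the weakest regions and beyond 2000 or 5000 bp, and 0.057 among called regions. For TAC against Veh/Sham the 620 higher regions became 212 after recentring, 399 among called regions, 317 at 2-fold, 278 beyond 5000 bp and 388 without RefSeq starts. The 37 lower regions became 180 after recentring, 17 with a pseudocount of 5, 14 without the weakest regions and 9 at 2-fold. The median of 0.62 was 0.47 and 0.67 with pseudocounts of 5 and 0.1, 0.030 after recentring, and 0.58 and 0.55 beyond 2000 and 5000 bp. For TAC against Iso the 511 higher regions became 297 after recentring, 290 among called regions, 241 at 2-fold, 320 and 219 beyond 2000 and 5000 bp, and 308 without RefSeq starts. The 31 lower regions became 13 with a pseudocount of 5 and also without the weakest regions, 75 after recentring, 8 among called regions, 7 at 2-fold, 17 beyond 5000 bp and 20 without RefSeq starts. The median of 0.49 was 0.43 on peak depth, 0.37 and 0.53 with pseudocounts of 5 and 0.1, 0.19 after recentring, 0.54 among called regions, and 0.42 and 0.39 beyond 2000 and 5000 bp. The number of regions, 1186, was 596 beyond 5000 bp and 758 without RefSeq starts. All counts without RefSeq starts also leave out the 38 regions on chromosome 18, which had no RefSeq start to compare with. Those called beyond 5000 bp numbered 305 (Veh/Sham), 172 (Iso) and 267 (TAC), and those of TAC were 376 without RefSeq starts. With 1 library of pooled hearts a condition and median peak depths of 13 to 20, a difference at a single region is limited by counting error, and spread between animals was not measured.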
